A study of Homo sapiens with 12 samples.

Results

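SMARCA4, the ATPase of SWI/SNF chromatin remodelling complexes, was knocked out in a pair of triple-negative breast cancer cell lines, and 9 genes of matrix invasion are described here among the 11529 genes measured. The set was listed by gene name, with no cut on a measured value, but with earlier results of these data known. It holds the metalloproteinases MMP1 and MMP14, the plasminogen activators PLAU and PLAT, the urokinase receptor PLAUR, the serine protease inhibitor SERPINE2 and the metalloproteinase inhibitors TIMP1, TIMP2 and TIMP3, and all 9 were in the table. RNA sequencing covered 12 samples in 4 groups of 3, namely control and SMARCA4 knock-out (KO) cells of MDA-MB-468, a basal-like line, and the same pair of groups of MDA-MB-231, a mesenchymal-like line. Controls were labelled wild type. KO cells had received a lentiviral CRISPR vector with a guide to SMARCA4 and were selected with puromycin as pools, so that edited and unedited cells were sequenced together. The study's protein blots used a non-targeting vector as control beside parental cells, whereas its methods name the sequenced comparison as wild type against KO, so whether the sequenced controls carried a vector cannot be told from these sources. The cells were detached with trypsin before RNA was extracted, and no other treatment was labelled.

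Cells cross and remodel extracellular matrix with proteases that act at or near their surface. In the plasminogen cascade, urokinase (PLAU) bound to its receptor PLAUR, or tissue plasminogen activator (PLAT), converts plasminogen to plasmin, which degrades fibrin and other matrix proteins and activates some metalloproteinases. MMP1 is a secreted collagenase of fibrillar collagen, and MMP14 is a membrane-anchored collagenase that also activates pro-MMP2 on the cell surface, with TIMP2 as a bridging partner. TIMPs bind metalloproteinases and block them, and SERPINE2 (protease nexin-1) blocks thrombin, urokinase and other serine proteases.

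The targeted gene was lower in every KO sample than in every control of its line. SMARCA4 stood at 96.9, 97.4 and 101 FPKM (fragments mapped to a gene, scaled to its length and to the library total) in MDA-MB-468 controls and at 39.7, 43.5 and 47.7 FPKM in KO cells, which is 44.3% of the control mean. In MDA-MB-231 it stood at 67.5, 71.5 and 67.0 FPKM in controls and at 21.0, 23.9 and 22.6 FPKM in KO cells, which is 32.7% of the control mean. Without MDA-MB-468 control replicate 2, control replicate 3 or KO replicate 2, the limma adjusted p in that line was 0.070, 0.057 and 0.075, at log2 changes of -1.17, -1.14 and -1.16. SMARCA4 RNA therefore remained in both pools, and these RNA values do not measure the protein. CDKN2A, which MDA-MB-231 has lost, was listed at 0 in all 6 of its samples and reached 74.5 to 123 FPKM in MDA-MB-468. RB1, which MDA-MB-468 has lost, was at most 0.48 FPKM there. The summed level of 10 epithelial markers ran from 5924 to 7577 FPKM in MDA-MB-468 and from 829.6 to 1384 FPKM in MDA-MB-231. That of the 6 mesenchymal markers in the table ran from 2.22 to 4.39 FPKM in MDA-MB-468 and from 1154 to 1715 FPKM in MDA-MB-231, with SNAI2 and ZEB2 listed at 0 in all MDA-MB-468 samples. Sequencing depth is unknown, since the table holds no counts, and nothing in the labels says that replicates were separate cultures, so p-values measure the spread between these samples, which may be technical. In pooled cells, fewer cells that express a gene and less RNA per cell cannot be told apart.

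MDA-MB-468 had the lower level of each of the 9 genes. The lowest MDA-MB-231 sample lay above the highest MDA-MB-468 sample for each of them, KO samples included. In controls, all 9 were called lower in MDA-MB-468 and 0 higher, where 31.4% of all genes were called lower and 32.7% higher. MMP1 and PLAT, at or near 0 in MDA-MB-468, could pass the authors' filter on low genes only through MDA-MB-231, so their calls between the lines had to follow and lend the count no support. The filter also removed genes with an SD under 1 FPKM. Over the MDA-MB-468 samples, MMP14, PLAU and SERPINE2 varied by less than that, so they too passed only through MDA-MB-231. Their calls lend the count no support either. A gene was called when its adjusted p (limma, Benjamini-Hochberg over 11529 genes) was under 0.05 and its difference on the log2(FPKM + 1) scale exceeded 0.5 in size. The median difference of the 9 genes between control lines was -4.36 on that scale, against 0.01 over all genes. The largest adjusted p among them was 3.3e-07, for SERPINE2, with limma.

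**Figure D1:**
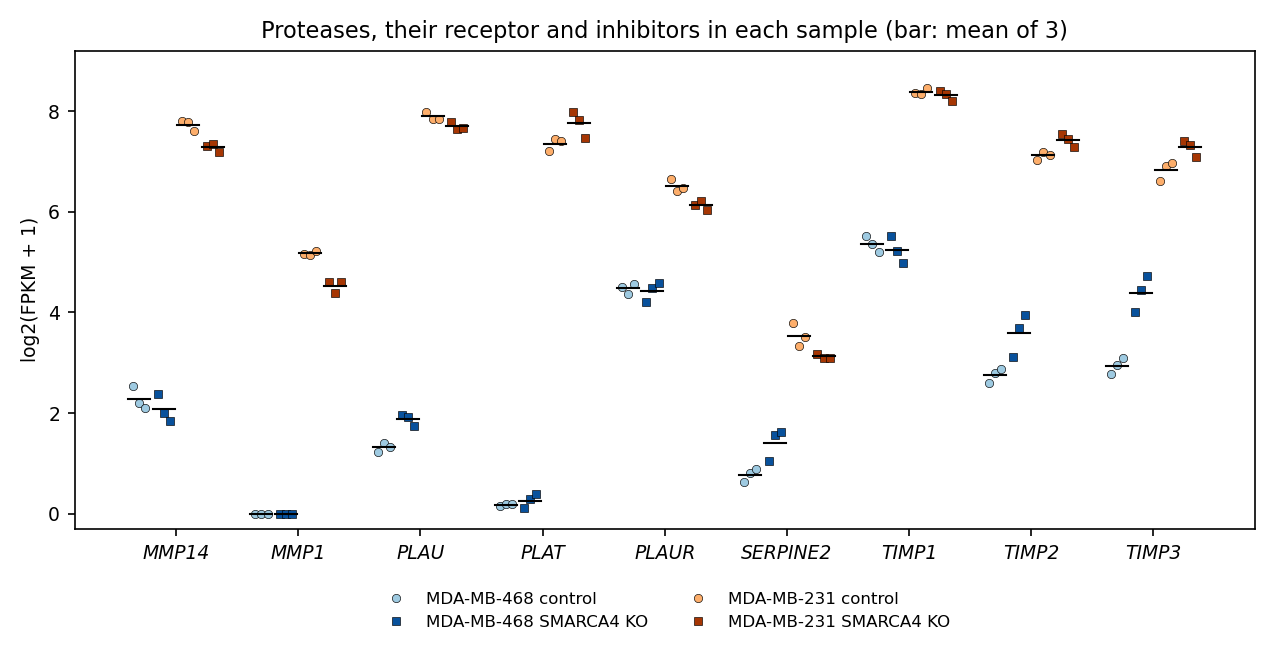
Level of each of the 9 genes in every sample, as log2(FPKM + 1), in control and SMARCA4 KO cells of both lines. Each point is 1 sample and bars show group means. MDA-MB-231 points sit above all MDA-MB-468 points for each gene, with the narrowest gap, 1.44, for PLAUR.

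Among the metalloproteinases, MMP1 (chromosome 11, 102660132 to 102668891, minus strand, GRCh37) had values above 0 in MDA-MB-231 alone. It was listed at 0 in all 6 MDA-MB-468 samples and stood at 34.6, 34.5 and 36.4 FPKM in MDA-MB-231 controls. MMP14 (chromosome 14, 23305769 to 23318250, plus strand) stood at 4.82, 3.57 and 3.31 FPKM in MDA-MB-468 controls and at 222, 220 and 194 FPKM in MDA-MB-231 controls. The mean of MMP14 was 54.3-fold lower in MDA-MB-468, and its log2 difference was -5.45 ± 0.12 (SE).

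The plasminogen activators showed wide gaps. PLAU (chromosome 10, 75668935 to 75677254, plus strand) stood at 1.35, 1.67 and 1.51 FPKM in MDA-MB-468 controls and at 252, 230.0 and 229 FPKM in MDA-MB-231 controls, with a log2 difference of -6.57 ± 0.08 (SE). PLAT stood at 0.11, 0.15 and 0.15 FPKM in MDA-MB-468 controls and at 147, 173 and 169 FPKM in MDA-MB-231 controls, and its log2 difference of -7.17 ± 0.08 (SE) was the largest of the 9. In MDA-MB-468, PLAT was close to absent and PLAU very low. The receptor was spread more evenly, since PLAUR (chromosome 19, 44150247 to 44174699, minus strand) stood at 21.6, 19.6 and 22.6 FPKM in MDA-MB-468 controls and at 99.7, 84.7 and 88.1 FPKM in MDA-MB-231 controls. Its mean was 4.26-fold lower in MDA-MB-468, the narrowest gap of the set. The ratio of PLAU to PLAUR in FPKM was 0.0714 ± 0.0120 (SD, n = 3) in MDA-MB-468 controls and 2.62 ± 0.09 (SD, n = 3) in MDA-MB-231 controls, so the receptor's RNA exceeded that of its ligand in the first line and not in the second.

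Of the inhibitors, TIMP1 was the highest of the 9 genes in both control lines. It stood at 45.0, 39.9 and 35.6 FPKM in MDA-MB-468 controls and at 327, 323 and 353 FPKM in MDA-MB-231 controls, an 8.32-fold gap. TIMP2 (chromosome 17, 76849059 to 76921469, minus strand) stood at 5.08, 5.95 and 6.33 FPKM in the former and 130, 145 and 140 FPKM in the latter. TIMP3 (chromosome 22, 33197691 to 33259028, plus strand), which unlike the other TIMPs is held in the matrix, stood at 5.83, 6.81 and 7.52 FPKM and at 96.3, 120 and 125 FPKM. SERPINE2 (chromosome 2, 224839762 to 224904035, minus strand) stood at 0.55, 0.76 and 0.85 FPKM and at 12.8, 9.04 and 10.4 FPKM. The levels of TIMP2 and TIMP3 thus overlapped within MDA-MB-468 controls, whereas in MDA-MB-231 controls all TIMP2 samples lay above all TIMP3 samples.

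By mean FPKM, the order in MDA-MB-231 controls was TIMP1, PLAU, MMP14, PLAT, TIMP2, TIMP3, PLAUR, MMP1 and SERPINE2. The samples of TIMP3 and PLAUR overlapped, and those of the other neighbours did not. In MDA-MB-468 controls the order was TIMP1, PLAUR, TIMP3, TIMP2, MMP14, PLAU, SERPINE2, PLAT and MMP1, where TIMP3 and TIMP2 overlapped. PLAUR, low in the order in MDA-MB-231, came directly after TIMP1 in MDA-MB-468.

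After SMARCA4 KO in MDA-MB-468, 2 of the 9 genes were called higher, PLAU and TIMP3, and 0 were called lower, where 1.33% of all genes were called higher and 0.815% lower. In 4 of the 9, PLAU, SERPINE2, TIMP2 and TIMP3, every KO sample lay above every control, and in 0 below, against 17.5% and 13.5% of all genes. An activator and 3 inhibitors were thus separated by genotype. With no adjustment, 4 of the 9 had a limma p under 0.05, as had 25.1% of all genes. The median log2 change of the 9 genes was 0.08, and that of all genes was 0.02.

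TIMP3 moved most. Against the control values given above, its KO samples stood at 15.1, 20.9 and 25.3 FPKM. The lowest KO sample lay well above the highest control, at 7.52 FPKM. The mean rose from 6.72 ± 0.85 to 20.4 ± 5.1 FPKM (SD, n = 3 each), or 3.04-fold, a log2 change of 1.45 ± 0.19 (SE) with a limma adjusted p of 0.029. With replicate numbers as a block, a pairing that is not established, the limma adjusted p was 0.043. A block by the number after the letter p in the sample descriptions (the p number) gave a limma adjusted p of 0.14, so the call was lost. The base sequence just before its start is shown because TIMP3 carried the largest change of the set. The 250 bases before the start, chr22:32801455-32801704 on the plus strand of GRCh38.p14 (RefSeq), hold 72.4% G and C, with capitals marking 5 GC boxes, GGGCGG or, for the other strand, CCGCCC, a motif bound by Sp/KLF factors.
TIMP3: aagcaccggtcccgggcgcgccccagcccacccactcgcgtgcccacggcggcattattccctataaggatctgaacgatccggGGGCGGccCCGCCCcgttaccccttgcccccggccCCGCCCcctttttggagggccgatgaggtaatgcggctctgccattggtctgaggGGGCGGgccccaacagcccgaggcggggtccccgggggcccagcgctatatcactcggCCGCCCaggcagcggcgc

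PLAU was the protease called higher. Its KO samples stood at 2.91, 2.81 and 2.34 FPKM, all above the highest control at 1.67 FPKM. The mean rose from 1.51 ± 0.16 to 2.69 ± 0.30 FPKM (SD, n = 3 each), or 1.78-fold, with a log2 change of 0.55 ± 0.08 (SE) and a limma adjusted p of 0.034. The limma adjusted p was 0.063 with the replicate block and 0.16 with the block by p number, so the call was lost with either. The KO level remained far under the 229 FPKM or more of MDA-MB-231 controls. The GRCh37 annotation places 31% of its exon bases on the antisense lncRNA C10orf55. The kit keeps strand but whether counting used it is not given in the sources used here. The RefSeq table holds 2 starts for PLAU. The window before the first held 0 GC boxes and 46.8% G and C. Before the second, chr10:73910882-73911131 on the plus strand of GRCh38.p14, capitals mark 3 GC boxes, at 66 to 61, 51 to 46 and 40 to 35 bases before the start.
PLAU: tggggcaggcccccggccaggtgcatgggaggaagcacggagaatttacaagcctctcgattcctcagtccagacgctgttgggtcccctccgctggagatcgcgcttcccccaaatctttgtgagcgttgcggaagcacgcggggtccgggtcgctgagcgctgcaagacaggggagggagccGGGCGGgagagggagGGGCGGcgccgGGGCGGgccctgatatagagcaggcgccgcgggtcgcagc

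GGGCGG in either strand occurred in 42.6% of 35116 promoter windows of that length, so its presence before TIMP3 and PLAU is common. It also occurred before MMP14, SERPINE2 and TIMP1, which were not called after KO in either line. The median G and C content of the 35116 windows was 58%. Of the 9 genes, 6 had a window in the table, all but MMP1, PLAT and TIMP2. Other motifs were searched on both strands. The AP-1 motif, spelled TGANTCA, was held by 6.57% of all windows. The ETS motif was taken as the letters CCGGAA and was held by 14.5%. The TEAD motif was taken as GGAATG, found in 11.9% of windows, and the TATA box as TATAAA, found in 10.7%. Of the 6 genes, PLAUR alone held any of these, with 1 AP-1 motif. It is shown as the promoter of the receptor, chr19:43670170-43670419 on the minus strand of GRCh38.p14, with the motif in capitals 186 to 180 bases before the start.
PLAUR: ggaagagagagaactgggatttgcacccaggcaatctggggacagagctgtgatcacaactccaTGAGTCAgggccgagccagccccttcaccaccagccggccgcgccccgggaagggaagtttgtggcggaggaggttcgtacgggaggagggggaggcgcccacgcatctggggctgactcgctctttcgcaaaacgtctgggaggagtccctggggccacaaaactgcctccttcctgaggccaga

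TIMP2 and SERPINE2 were higher in all 3 MDA-MB-468 KO samples but did not pass the test. TIMP2 stood at 7.62, 11.9 and 14.5 FPKM in KO cells, a log2 change of 0.83 ± 0.22 (SE) with a limma adjusted p of 0.095. SERPINE2 stood at 1.07, 1.95 and 2.07 FPKM, a log2 change of 0.63 ± 0.17 (SE) with a limma adjusted p of 0.093. For both, KO replicate 1 was the lowest KO sample, and without it the limma adjusted p was 0.024 for each. TIMP2 shares 3.61% of its exon bases with CEP295NL and 5.91% with an antisense lncRNA.

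The other 5 genes overlapped between genotypes in MDA-MB-468. MMP14 stood at 4.22, 3.02 and 2.58 FPKM in KO cells (log2 change -0.20 ± 0.18, SE), each under the control of the same replicate number, with a limma adjusted p of 0.52 without and 0.11 with the block. PLAUR stood at 17.5, 21.6 and 23.1 FPKM (-0.04 ± 0.11, SE), and TIMP1 at 44.7, 36.6 and 30.6 FPKM (-0.12 ± 0.16, SE), again each under its same-numbered control, with a limma adjusted p of 0.69 without and 0.31 with the block. PLAT stood at 0.08, 0.22 and 0.31 FPKM, and MMP1 was listed at 0 as in controls. Urokinase RNA was thus higher in KO cells while no difference in its receptor passed the test.

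The calls in MDA-MB-468 rested on the full set of 6 samples. Without KO replicate 1 both held, at a limma adjusted p of 0.048 for PLAU and 0.018 for TIMP3. Without control replicate 1, 2 or 3 the limma adjusted p was 0.091, 0.11 and 0.098 for PLAU and 0.082, 0.11 and 0.082 for TIMP3. Without KO replicate 2 or 3 it was 0.14 and 0.071 for PLAU and 0.12 and 0.078 for TIMP3, while the log2 change stayed between 0.51 and 0.62 for PLAU and between 1.29 and 1.64 for TIMP3. The summed epithelial markers did not overlap either, at 5924 to 6110 FPKM in controls and 6809 to 7577 FPKM in KO cells, and 0 of the 10 were called. The sum was carried by keratins such as KRT8 (1585 to 1634 FPKM in controls, 2059 to 2377 in KO cells). EPCAM (296.6 to 306.8 FPKM in controls, 275 to 291 in KO cells), CLDN7 (220 to 224 and 171 to 198) and ESRP1 (52.6 to 56.3 and 48.9 to 50.9) were lower in every KO sample. Mesenchymal markers summed to 2.22 to 3.94 FPKM in controls and 3.77 to 4.39 FPKM in KO cells, with 0 of 6 called. The part of either list in the protease values was not tested.

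In MDA-MB-231, SMARCA4 KO left 1 of the 9 genes called, MMP1, which was lower, and 0 called higher, where 1.31% of all genes were called lower and 2.39% higher. In 5 of the 9 (MMP1, MMP14, PLAU, PLAUR and SERPINE2) every KO sample lay below every control, and in 3 (PLAT, TIMP2 and TIMP3) above, against 19.4% and 16.6% of all genes. Both metalloproteinases, urokinase, its receptor and the inhibitor SERPINE2 were on the lower side, and TIMP2, TIMP3 and the activator PLAT on the higher side. With no adjustment, 8 of the 9, all but TIMP1, had a limma p under 0.05, as had 31.2% of all genes. The median log2 change of the 9 genes was -0.19, and that of all genes was -0.01.

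MMP1 stood at 23.4, 19.8 and 23.2 FPKM in KO cells, under the lowest control at 34.5 FPKM. The mean fell from 35.2 ± 1.1 to 22.1 ± 2.0 FPKM (SD, n = 3 each), to 62.9% of the control level, with a log2 change of -0.65 ± 0.07 (SE) and a limma adjusted p of 0.012. The call held without each of the 6 samples in turn. MMP1 shares 8.14% of its exon bases with the pseudogene WTAPP1 on the other strand.

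MMP14 and PLAUR passed the limit on p but not the one on fold. With no limit on fold, 3 of the 9 genes (these and MMP1) were lower at a limma adjusted p under 0.05, against 5.48% of all genes. MMP14 stood at 158, 162 and 145 FPKM in KO cells, or 73.1% of the control mean, with a log2 change of -0.45 ± 0.08 (SE) and a limma adjusted p of 0.026. PLAUR stood at 69.6, 73.4 and 64.2 FPKM, or 76.1% of the control mean, with a log2 change of -0.39 ± 0.08 (SE) and a limma adjusted p of 0.043. Without control replicate 3, the log2 change of MMP14 was -0.51 with a limma adjusted p of 0.038, past both limits. Without each of the other 5 samples in turn, its limma adjusted p was 0.061 to 0.087. That of PLAUR was 0.069 to 0.12 without each of the 6. With all samples kept, PLAUR missed the limit on p with 75th percentile scaling (0.060), quantile normalization (0.058), a pseudocount of 0.1 (0.0503) and the replicate block (0.109). It passed with a mean log2 level of at least 2, an intensity trend and one fit of all 12 samples. MMP14 missed the limit in that one fit (limma adjusted p 0.051) and with the block (0.071), and passed under the rest.

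The remaining 6 genes did not pass the limit on p in this line. PLAU stood at 220, 201 and 202 FPKM (log2 change -0.19 ± 0.06, SE, limma adjusted p 0.11), all under its lowest control. SERPINE2 stood at 8.04, 7.60 and 7.56 FPKM (-0.42 ± 0.12, SE, limma adjusted p 0.077). PLAT was higher, at 252, 225 and 176 FPKM (0.40 ± 0.15, SE, limma adjusted p 0.13), and its lowest KO sample was only just above the highest control at 173 FPKM.

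TIMP2 in MDA-MB-231 KO cells stood at 187, 173 and 154 FPKM (0.31 ± 0.08, SE, limma adjusted p 0.073). TIMP3 stood at 169, 160 and 136 FPKM (0.45 ± 0.13, SE, limma adjusted p 0.080). Both lay above all controls but missed the limit. TIMP1, the most abundant of the 9 genes, stood at 337, 324 and 293 FPKM and overlapped with controls (-0.07 ± 0.07, SE). Mesenchymal markers summed to 1480 to 1715 FPKM in controls and to 1154 to 1290 FPKM in KO cells, with 0 of 6 called. SNAI2 (log2 change -0.45, limma adjusted p 0.015) and VIM (-0.39, limma adjusted p 0.031) passed the limit on p but not the one on fold. ZEB1 went the other way, at 0.02. Epithelial markers summed to 829.6 to 1249 FPKM in controls and to 1232 to 1384 FPKM in KO cells, with 1 of 10 called (CDH1, at 0.12 to 0.41 FPKM in controls and 0.62 to 1.01 FPKM in KO cells). The part of these markers in the protease values was not tested.

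**Figure D2:**
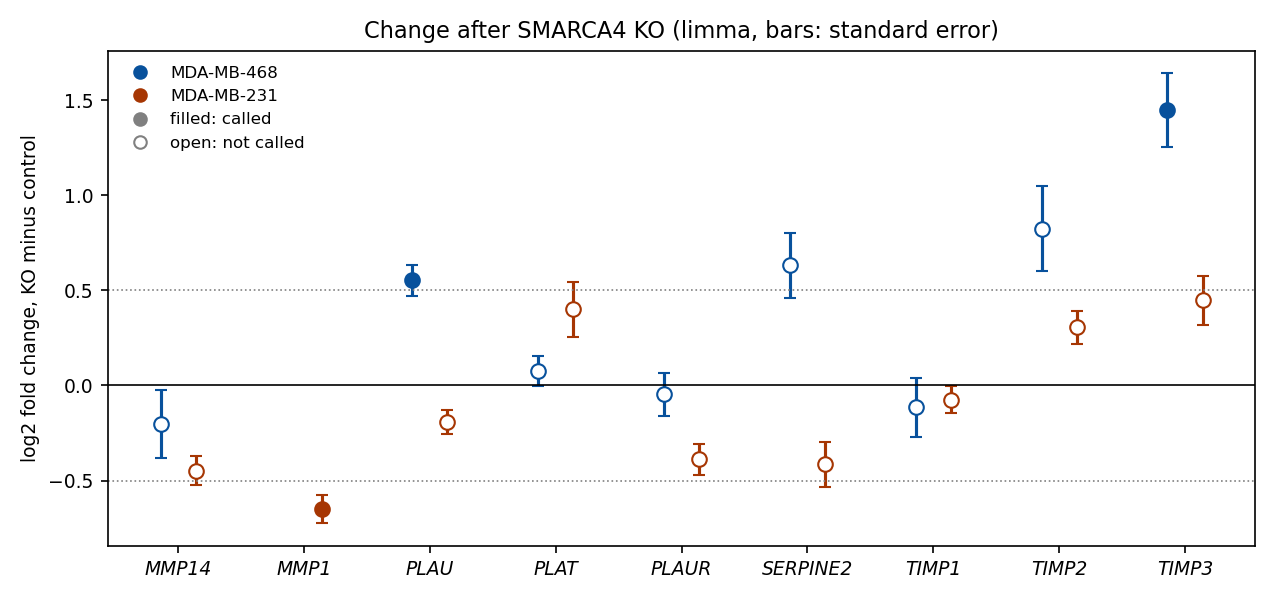
Log2 fold change of each of the 9 genes after SMARCA4 KO (KO minus control on the log2(FPKM + 1) scale) in MDA-MB-468 (blue) and MDA-MB-231 (orange), with standard errors; filled points are called and dotted lines mark a size of 0.5. TIMP3 at 1.45 is the highest point, MMP1 at -0.65 in MDA-MB-231 the lowest, and MMP1 has no point in MDA-MB-468, where it was listed at 0.

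The lines were then compared for the change itself, in 1 limma fit of all 12 samples. The change in MDA-MB-468 exceeded that in MDA-MB-231 for 4 of the 9 genes (MMP1, PLAU, SERPINE2 and TIMP3) and fell short of it for 0, where 7.91% and 6.83% of all genes passed (adjusted p under 0.05). Over all genes, 912 passed higher and 787 lower, and with samples scaled to their 75th percentile 671 and 941. The change of PLAU differed by 0.74 ± 0.11 (SE, limma adjusted p 0.0021), from 0.55 in MDA-MB-468 to -0.19 in MDA-MB-231. That of SERPINE2, an inhibitor of PLAU, differed by 1.05 ± 0.21 (SE, limma adjusted p 0.0089), from 0.63 to -0.42. These genes were thus displaced in opposite directions in the 2 lines. Within a line, the change of PLAU in MDA-MB-468 passed the test, and those of SERPINE2 in either line and of PLAU in MDA-MB-231 did not.

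TIMP3 was displaced upward in both lines, by 1.45 and 0.45, and the changes differed by 1.001 ± 0.235 (SE, limma adjusted p 0.019). TIMP2 had a like pattern, 0.83 and 0.31, but the difference of 0.52 ± 0.24 (SE) had a limma adjusted p of 0.16. For MMP1 the difference of 0.65 restates the fall in MDA-MB-231, since it was listed at 0 in the other line. No difference in change passed for MMP14, PLAUR, PLAT or TIMP1, with limma adjusted p of 0.42, 0.13, 0.22 and 0.90. Without MDA-MB-468 KO replicate 1, TIMP2 (0.76, limma adjusted p 0.0087) and PLAUR (0.45, limma adjusted p 0.034) passed as well, and without MDA-MB-231 KO replicate 3, PLAT (-0.47, limma adjusted p 0.045) did.

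Protease and inhibitor levels were also set against each other within each sample, as FPKM ratios. The pairs were chosen after the values were seen, and 9 ratios were compared by exact permutation (two-sided), where 3 samples against 3 allow no p under 0.1. MMP14 to TIMP2, the pair that meets at the cell surface, was 1.71, 1.52 and 1.39 in MDA-MB-231 controls and 0.846, 0.936 and 0.937 in KO cells. The means, 1.54 ± 0.16 and 0.906 ± 0.053 (SD, n = 3 each), lay on either side of equal levels, with exact p = 0.1 (adjusted 0.15). In MDA-MB-468 the same ratio was 0.949, 0.60 and 0.523 in controls and 0.554, 0.254 and 0.178 in KO cells, which overlapped as groups (unpaired exact p = 0.2), while each KO sample lay under the control of the same replicate number.

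PLAU to PLAT in MDA-MB-231 was 1.71, 1.33 and 1.35 in controls and 0.873, 0.893 and 1.15 in KO cells, with no overlap (exact p = 0.1, adjusted 0.15). MMP1 to TIMP1 in that line was 0.105 ± 0.002 in controls and 0.0699 ± 0.0090 in KO cells (SD, n = 3 each, exact p = 0.1). PLAU to PLAUR in MDA-MB-468 was 0.0624, 0.0850 and 0.0667 in controls and 0.166, 0.130 and 0.101 in KO cells (exact p = 0.1). PLAU to SERPINE2 in MDA-MB-468, where both genes were higher in KO cells, was 2.14 ± 0.34 in controls and 1.76 ± 0.84 in KO cells (SD, n = 3 each, exact p = 0.5). The remaining 3 ratios were higher on average in KO cells. PLAU to SERPINE2 in MDA-MB-231 was 22.4 ± 2.9 in controls and 26.8 ± 0.5 in KO cells, and PLAU to PLAUR in that line 2.62 ± 0.09 and 3.01 ± 0.24, both without overlap (SD, n = 3 each, exact p = 0.1, adjusted 0.15). PLAU to PLAT in MDA-MB-468 was 11.2 ± 1.1 in controls and 18.9 ± 15.4 in KO cells (SD, n = 3 each, exact p = 0.7), on PLAT levels of 0.31 FPKM or less.

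**Figure D3:**
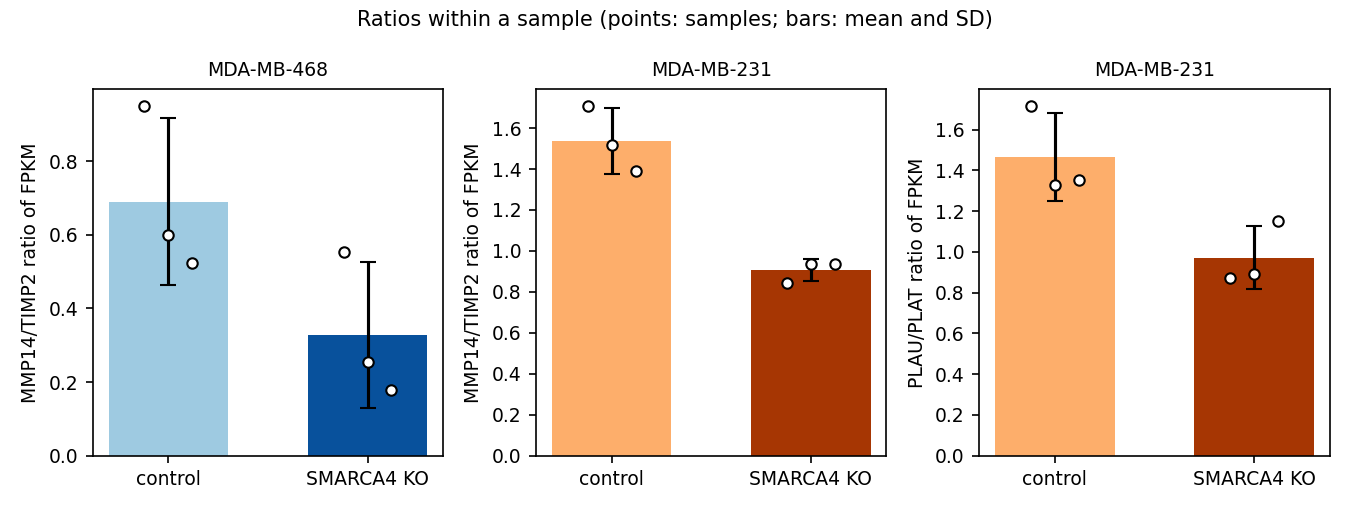
FPKM ratios within a sample, MMP14 to TIMP2 in both lines and PLAU to PLAT in MDA-MB-231, by genotype on linear axes that start at 0. Points are samples and bars the mean and SD of 3. The MMP14 to TIMP2 ratios of MDA-MB-231 KO cells (0.846 to 0.937) lie under those of controls (1.39 to 1.71).

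Other genes of pericellular proteolysis were taken from 9 lists of proteases, inhibitors and their transcription factors, of which 84 of 138 genes were in the table. Between control lines, 33 of the 84 were called higher in MDA-MB-468 and 39 lower, where 32.7% and 31.4% of all genes were. The lists went both ways, unlike the 9 genes. More were lower among ADAM and ADAMTS genes (8 against 3 higher), cathepsins (6 against 3) and cystatins (5 against 1). The same held for the plasminogen system (4 against 2) and AP-1 and ETS factors (6 against 4). More were higher among serine proteases (12 against 6) and their inhibitors (6 against 2). Some of these genes were at 0 in 1 line and could pass the authors' filter only through the other. The next counts are for KO against control. In MDA-MB-468, 2 were called higher and 2 lower, or 4.76% of the 84 against 2.14% of all genes, and 32.1% of them (27) had an unadjusted limma p under 0.05 against 25.1% of all genes. In MDA-MB-231, 8 were called higher and 2 lower, or 11.9% against 3.7% of all genes, and 38.1% of them (32) had an unadjusted limma p under 0.05 against 31.2% of all genes. The serine protease HTRA1 was called lower in both lines. It stood at 1.33, 0.98 and 1.1 FPKM in MDA-MB-468 controls and at 0.17, 0.41 and 0.43 FPKM in KO cells, a log2 change of -0.68, and in MDA-MB-231 its log2 change was -0.56.

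In MDA-MB-468 the other genes called were TMPRSS4, ETS1 and JUND. TMPRSS4, a membrane-bound serine protease, stood at 86.8, 64.3 and 57.2 FPKM in controls and at 39.0, 32.6 and 30.8 FPKM in KO cells (log2 change -0.99, limma adjusted p 0.046). ETS1, a transcription factor of the ETS family, stood at 12.98, 14.93 and 14.22 FPKM in controls and at 23.7, 29.0 and 32.3 FPKM in KO cells (0.95, limma adjusted p 0.027). JUND, a subunit of AP-1, had a log2 change of 0.54 (limma adjusted p 0.036). With the replicate block, HTRA1 and JUND lost the call at limma adjusted p of 0.077 and 0.055, while TMPRSS4 and ETS1 held it at 0.043 and 0.045. The kallikrein KLK10 (log2 change 0.92), the urokinase inhibitor SERPINB2 (0.60) and the cystatin CST6 (0.61), which missed the limit without the block at 0.057, 0.15 and 0.10, passed with it at limma adjusted p of 0.033, 0.047 and 0.047. With the block by p number, the lowest limma adjusted p of any gene in this line was 0.14. Without control replicate 1, 2 or 3 or KO replicate 2 or 3, TMPRSS4 and ETS1 missed the limit, at limma adjusted p of 0.078 to 0.16 and 0.078 to 0.11. In those 5 fits HTRA1 was at 0.093 to 0.12 and JUND at 0.091 to 0.13, and without KO replicate 1 the log2 change of JUND, 0.48, was under the fold limit.

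In MDA-MB-231 the genes called higher were inhibitors and proteases alike. TFPI2, a Kunitz-type inhibitor of plasmin, stood at 33.4, 37.3 and 32.0 FPKM in controls and at 80.9, 85.0 and 72.6 FPKM in KO cells, a log2 change of 1.19 with a limma adjusted p of 0.0054. In MDA-MB-468 its KO samples ran from 7.06 to 21.7 FPKM against 3.81 to 4.24 FPKM in controls, with a log2 change of 1.48 and a limma adjusted p of 0.084. SERPINA3 (alpha-1-antichymotrypsin) had a log2 change of 1.72 and the membrane-bound serine protease TMPRSS2 one of 1.57, from control means of 1.53 and 1.20 FPKM. ADAM28 (1.14), the cathepsins CTSV (1.13) and CTSF (0.57), the cystatin CST7 (1.03) and the membrane-type metalloproteinase MMP15 (0.74) were the others. F2RL1, a receptor that serine proteases activate by cleavage, stood at 91.1, 98.2 and 98.7 FPKM in controls and at 57.6, 53.6 and 54.7 FPKM in KO cells, a log2 change of -0.78 with a limma adjusted p of 0.0051.

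The calls of TFPI2, SERPINA3, TMPRSS2 and F2RL1 in MDA-MB-231 held without each sample in turn. ADAM28 and CTSF lost theirs without any of the 6 samples, at limma adjusted p of 0.056 to 0.12 and 0.051 to 0.14. CST7 and HTRA1 kept theirs without control replicate 1 and lost them without each of the other 5, at 0.066 to 0.14 and 0.056 to 0.096. MMP15 lost its call without control replicate 2, KO replicate 1 or KO replicate 2 (limma adjusted p 0.056, 0.074 and 0.089), and CTSV without KO replicate 2 (0.051).

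Of 20 other MMP genes listed, 2 (MMP15 and MMP19) were in the table. Between control lines, MMP15 was higher in MDA-MB-468 (log2 difference 2.20) and MMP19 lower (-1.95). MMP2 and MMP9, the gelatinases, were not among the genes with values, so their levels are not known here.

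**Figure D4:**
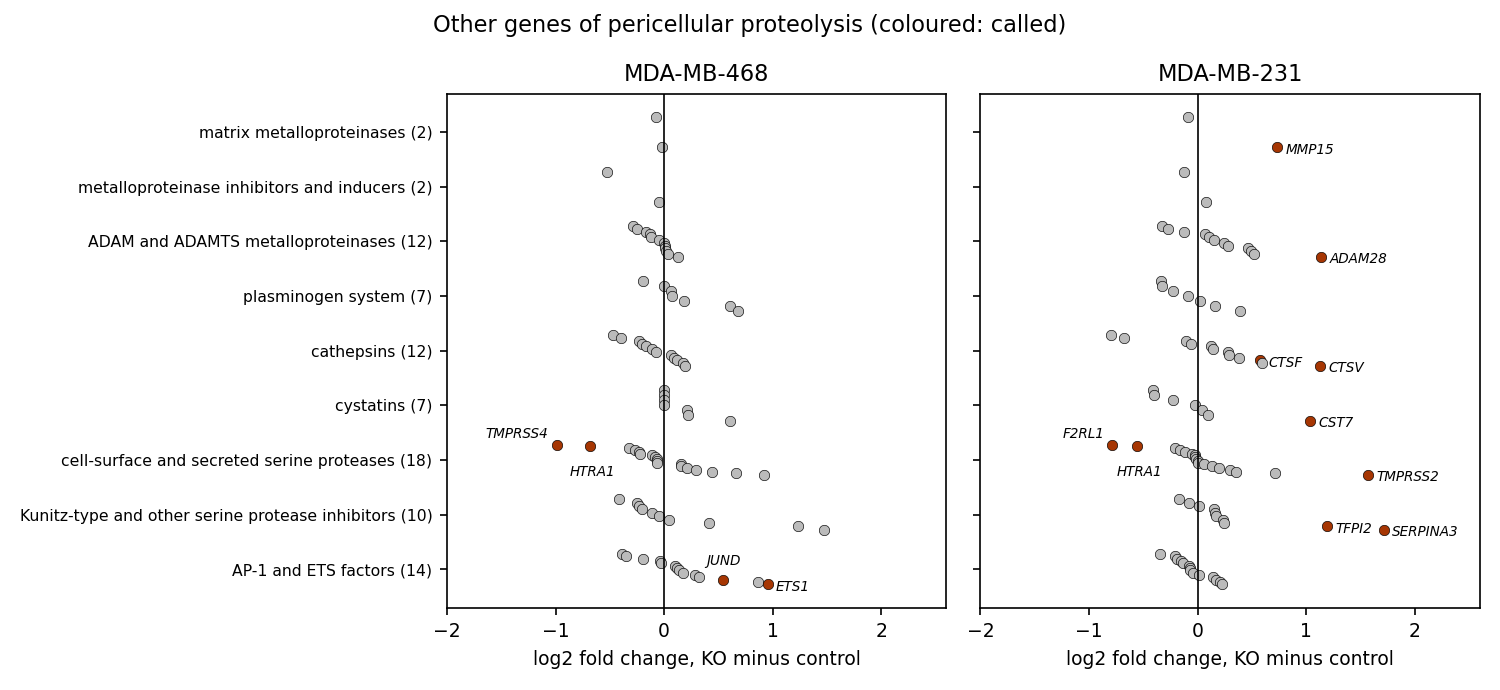
Log2 fold change after SMARCA4 KO of the 84 other genes of pericellular proteolysis, grouped by list, with a panel for each line. Each point is 1 gene, with called genes coloured and named. HTRA1 is called lower in both lines, and 8 genes are called higher in MDA-MB-231.

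The genes most like each called gene were ranked by Pearson's r over the 12 samples, after the mean of the cell line was taken off each value, among genes with a mean log2 level of at least 2. These 12 points share the 4 groups, so r mostly follows the group pattern and is given as a description. Closest to MMP1 were LINC00973 (r = 0.98), F2RL1 (0.97) and RPF1 (0.97). Closest to PLAU were KRT10 (0.94), HNRNPLL (0.93) and LDHB (0.93), and closest to TIMP3 were PFKP, ROBO3 and KLK10 (each r = 0.98). Within the set, TIMP2 and TIMP3 had r = 0.96, PLAU and SERPINE2 0.77, MMP1 and PLAUR 0.71, and MMP14 and TIMP2 -0.72.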

How the data were processed

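RNA was sequenced from 12 samples of breast cancer cells, MDA-MB-231 and MDA-MB-468, 3 per group, with a stranded mRNA kit. The authors trimmed the reads, aligned them with STAR to hg19, estimated FPKM with RSEM and deposited log2(FPKM + 1) values of 11529 genes. In the table the lowest mean of a gene over samples was 1.07 and the lowest SD 1.00 in FPKM. Genes low in all samples, or varying little between them, were thus removed before deposit, and 18 gene symbols had been turned into dates. No per-sample column was left unmapped (0). Counts were not used here, so depth is unknown and no interval from counting could be given.

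The deposited log2 values were fitted per gene by limma (3.58.1, under R 4.3.3), using lmFit and then eBayes with no trend, KO minus control within each line. The study's methods name limma and the limits on p and fold, and the eBayes setting was chosen here. The difference between the lines' changes was fitted over all 12 samples, and control lines were compared over the 6 controls. P-values were adjusted by Benjamini-Hochberg over all genes, and fold changes are on the log2(value + 1) scale, which understates the change of low genes. FPKM were recovered as 2 to the power of the value, less 1. The fit was tested on simulated data with known changes. Ratios were tested with exact permutation tests, and promoter motifs and figures were computed in Python 3.11.15.

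Replicate numbers of the labels were checked as pairs. In MDA-MB-468 the deviations of same-numbered samples correlated at 0.28, 0.191 and 0.147, all over 0.1, and those of differently numbered samples at -0.257 to 0.153. The ranges overlapped, so the pairing is not established, and a blocked value is given where it changes a call. This pairing comes from the numbers and not from a stated batch. In MDA-MB-231 the same-numbered correlations were -0.07, 0.08 and -0.16, and the others ran from -0.21 to 0.25, so the numbers do not pair its samples. A further number in the sample descriptions, after the letter p, pairs samples differently in MDA-MB-468 and was tried as an alternative. Other alternatives were the pseudocount (0.1), a mean log2 level of at least 2, an intensity trend, 75th percentile and quantile scaling, one fit of all samples, other fold limits and leaving out each sample.

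The 9 genes and all lists were chosen with earlier results of these data known. Named were the 9 genes, SMARCA4, MMP2 and MMP9, at most 12 called list genes per line whose groups did not overlap, and the 3 most similar genes of each called gene. Some genes of the rule and the marker lists are not reported here. KLK10, SERPINB2, CST6, CDH1 and TFPI2 in MDA-MB-468, CD14, and the epithelial genes beside the MDA-MB-468 sum were named after their values were seen. So were the mesenchymal genes beside the MDA-MB-231 sum, and MMP15 and MMP19 between control lines. Leukocyte markers were checked too, and CD68 and CD14, the 2 of 6 in the table, summed to 23.1 to 114 FPKM over the samples. CD14 was called higher in MDA-MB-231 KO cells, at 0.79 to 1.39 FPKM in controls and 2.65 to 4.90 FPKM in KO cells (log2 change 1.18, limma adjusted p 0.029). Gene positions are from GENCODE on GRCh37, and promoter sequences from RefSeq on GRCh38.p14.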

Additional observations from a re-analysis of the deposited data

Results flagged for a closer look

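The change after SMARCA4 KO differed between the cell lines for 4 of the 9 genes, by limma's test of the difference itself over 12 samples. The difference, MDA-MB-468 change minus MDA-MB-231 change on the log2(FPKM + 1) scale, was 1.05 for SERPINE2 (limma adjusted p 0.0089) and 0.74 for PLAU (limma adjusted p 0.0021), and for both the change was above 0 in MDA-MB-468 and under 0 in MDA-MB-231. It was 1.001 for TIMP3 (limma adjusted p 0.019), whose change was above 0 in both lines. It was 0.65 for MMP1 (limma adjusted p 0.0018), which was listed at 0 in all MDA-MB-468 samples, so that the value is that of MDA-MB-231 alone. PLAU and SERPINE2 were low in MDA-MB-468 (at most 2.91 and 2.07 FPKM), where the log2(FPKM + 1) scale understates a fold change. With a pseudocount of 0.1 in place of 1, the differences were 0.98 for PLAU and 1.55 for SERPINE2. All 4 passed under each of the 18 alternatives run for this comparison, the blocked fit and the fits without 1 sample among them.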

How the results depend on the processing

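Across 698 recomputed values of named genes, 597 kept their direction and stayed called or not called, 87 lost a call, 8 gained one and 6 changed sign. The 9 genes called between control lines stayed 9 under each of 12 alternatives, and the 4 called for a difference in change stayed between 4 and 6. In MDA-MB-468, 247 genes, 2 of the 9 and 4 of the list genes were called. One fit of all 12 samples called 537, 4 and 9. A replicate block called 241, 1 and 5, and a replicate block by p number called 0, 0 and 0 (limma, 2218 genes at an unadjusted p under 0.05). A fold limit of 1 left 53, 1 and 0, and no limit gave 432 genes. A pseudocount of 0.1 left 2 list genes. Leaving out 1 sample each gave 0 to 474 genes, 0 to 4 of the 9 and 0 to 8 list genes. No gene was called without control replicate 2 or without KO replicate 2 (limma, 2288 and 2023 genes at an unadjusted p under 0.05). In MDA-MB-231, 426 genes, 1 of the 9 and 10 list genes were called. The replicate block, whose numbers do not pair these samples, left 0, 0 and 0 with a limma adjusted p of 0.071 for MMP1, and 3126 genes at an unadjusted p under 0.05. A fold limit of 1 left 85, 0 and 6, and no limit gave 1248 and 3. Leaving out 1 sample each gave 99 to 311 genes, 1 to 2 of the 9 and 4 to 8 list genes. Signs changed for small differences, in MDA-MB-468 PLAT with quantile normalization (-0.0065), PLAUR without KO replicate 1 (range over the 6 samples left out -0.12 to 0.065) and TIMP1 without KO replicate 3 (-0.25 to 0.015). The difference in change of TIMP1 turned without MDA-MB-468 control replicate 1, MDA-MB-231 KO replicate 1 or MDA-MB-468 KO replicate 3 (-0.18 to 0.089). The cause of these shifts was not tested, beyond the fewer samples of a fit that leaves 1 out. Depth is unknown, so no limit for genes listed at 0 can be given.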
